A study of Mus musculus with 16 samples.

Results

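The 8 genes described here are 2 natriuretic peptide genes (Nppa and Nppb) and 6 genes for transcription factors of the heart (Gata4, Nkx2-5, Tbx5, Tbx20, Hand2 and Mef2c), chosen by name out of 21938 protein-coding genes. ATAC-seq, an assay that uses a transposase to cut and tag open DNA, was used to profile chromatin accessibility at these loci in brown and white adipose tissue, heart, kidney, liver, lung, muscle and spleen of wild-type male C57BL/6 mice that were either fed or fasting. Each tissue and state is represented by 1 library made from tissue powder pooled over mice, so the 16 libraries hold 2 heart libraries and 14 of the 7 other tissues. There are no replicates, the tissues of each state share their mice, and the feeding state cannot be told apart from the pool of mice. The whole organ was used, and open chromatin of cardiomyocytes, fibroblasts, vessels and blood in it, like the share of each cell type, cannot be separated.

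Nppa and Nppb encode atrial and B-type natriuretic peptide, hormones released by stretched heart muscle that promote salt excretion and widen blood vessels through the receptor Npr1. Their genes lie side by side and are textbook targets of the same cardiac factors: Gata4 is a zinc finger protein, Nkx2-5 a homeodomain protein, Tbx5 and Tbx20 are T-box proteins, Hand2 is a basic helix-loop-helix protein and Mef2c a MADS box protein. These factors bind enhancers together and are needed to form the heart. Several also work elsewhere, for example Mef2c in skeletal muscle and lymphocytes, Tbx5 in lung mesenchyme and Nkx2-5 in the forming spleen.

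Each library was available as a list of MACS2 peak summits. The lists were of nearly the same length, 298996 to 299529 summits, although the genome-wide background, a measure of depth, ranged from 2.80 tags in fed liver to 12.8 tags in fed brown adipose and was 4.92 tags in fed and 5.84 tags in fasting heart. Strength was therefore expressed as a rank, the percentage of summits in the same list with a -log10 p no larger. The promoter rank of a gene is the highest rank of a summit within 3 kb of any of its annotated starts, and 0 where none is listed, which says only that no summit entered the list and not that the chromatin is closed. All 6 cardiomyocyte marker genes checked (Myh6, Tnnt2, Tnni3, Actc1, Ryr2 and Mybpc3) had more summits in heart than in any other tissue in both states. Of all protein-coding genes with a summit, 3.01% showed this. Only 1 of the 6, Tnnt2, had the highest promoter rank in heart in both states, against 4.38% of genes with a summit near a start. These counts are from the full lists. Their summed promoter rank was 536.6 in fed and 507.5 in fasting heart, against 306.0 to 434.0 in the other libraries. Of the 4 atrial markers, Sln and Bmp10 were at 0 in both heart libraries, and Bmp10 was at 0 in the other 14 libraries too. Myl4 was at 98.97 in fed and 99.57 in fasting heart, and Myl7 at 45.96 and 13.94. Of the 4 hepatocyte genes, Alb, Ttr and Serpina1a were at 0 at their promoters in both heart libraries and Apoa1 was at 87.4 and 96.2. Of the 5 skeletal muscle fibre genes, Myh4 was at 0 in both, while Mylpf, Tnnt3, Ckm and Acta1 were listed, at 58.9 to 97.6.

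All 8 genes had a promoter summit in both heart libraries. In 5 of the 8 genes, Nppb, Nkx2-5, Tbx5, Tbx20 and Hand2, the promoter rank was higher in heart than in every other tissue of the same state, in fed and in fasting mice; over all protein-coding genes with a promoter summit, 4.38% showed this pattern. The median difference between heart and the other tissues was 53.0 rank points over the 8 genes and 0.0655 points over all genes tested. For each of these 5 genes the exact one-sided permutation test, which moves the tissue label within each state, gave p = 0.0156, the smallest value its 64 arrangements allow. Benjamini-Hochberg adjustment over all 19719 genes gave 0.357 for each, and no gene of the genome passed. The count of 5 was 3 with summits at q under 0.01 alone (Nppb, Nkx2-5 and Tbx20), 2 when ranked by fold (Nkx2-5 and Tbx20) and 1 after scaling tags to an equal genome background (Tbx20), which left 83912 summits in fasting heart to 244336 in fed kidney. The exact permutation p rose to 0.0781 for Tbx5 at q under 0.01 and, at equal background, to 0.359 for Tbx5 and 0.125 for Hand2. The p-values measure only the spread between these pooled libraries. The label is moved separately in each state, so the fed and fasting libraries of a tissue are counted as independent. A test that keeps both libraries of a tissue together was not run. With fed or fasting libraries alone, the exact one-sided permutation test gave p = 0.125 for each of the 5 genes, the smallest value possible there.

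**Figure D1:**
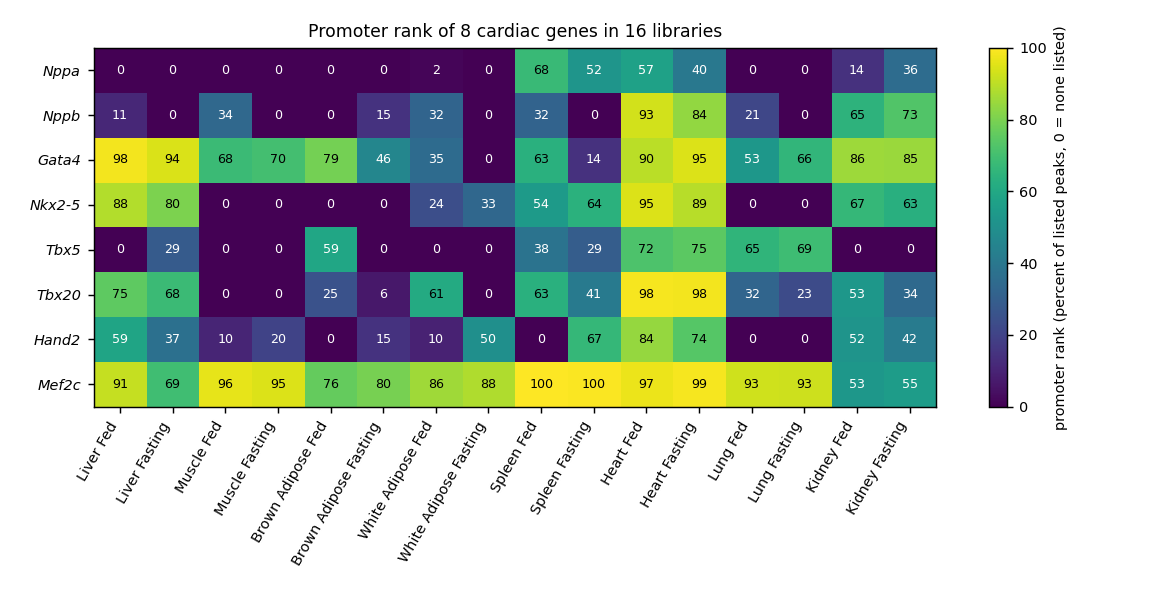
Promoter rank (percent, colour and printed number) of the 8 genes (rows) in the 16 libraries (columns); 0 means that no summit was listed within 3 kb of a start. The Tbx20 row is at 98 in both heart libraries and at most 75 elsewhere, while the Mef2c row is high in nearly every library and highest in spleen.

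Among the hormone genes, Nppb carried the stronger promoter. Its rank was 93.1 in fed and 83.6 in fasting heart, and the other 14 libraries had a lowest rank of 0, a median of 12.8 and a highest of 72.9, in fasting kidney. Both heart values thus lay above all others, and 6 of the other libraries listed no summit. The fasting heart value came from a summit 2571 bp downstream of the start, beyond the end of the gene. The region at the Nppb start itself ranked at 81.5 in fasting heart. Nppa was weaker in heart, at 57.2 in fed and 40.0 in fasting mice, with a lowest and a median of 0 and a highest of 67.6 in fed spleen among the others. The groups overlapped for Nppa: both spleen libraries (67.6 and 52.1) lay above fasting heart (exact permutation p = 0.0781, adjusted p = 0.620). Only 1 summit was listed near the Nppa start in fasting heart, at 2878 bp downstream, whereas the strongest summit in fed heart lay 468 bp upstream.

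The proximal promoters are shown because the cardiac factors are known to act there. The letters come from the RefSeq promoter table on GRCm38, plus strand, and stop at the base before the annotated start. Capitals mark GATAA (the core of GATA sites), AAGTG (NKX sites) and AGGTGT (T-box sites) on either strand; CATTCC (TEAD), MEF2 and CArG sites were also searched on both strands. Nppa is shown over chr4:148000472-148000721 and Nppb over chr4:147985650-147985787.
Nppa promoter: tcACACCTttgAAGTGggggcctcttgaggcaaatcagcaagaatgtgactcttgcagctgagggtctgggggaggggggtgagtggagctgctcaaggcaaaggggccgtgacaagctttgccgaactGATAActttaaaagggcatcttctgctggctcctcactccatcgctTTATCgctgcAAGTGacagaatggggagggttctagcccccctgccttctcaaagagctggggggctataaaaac
Nppb promoter: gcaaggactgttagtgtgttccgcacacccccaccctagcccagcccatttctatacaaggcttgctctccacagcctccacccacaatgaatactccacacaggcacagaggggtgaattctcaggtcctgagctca
The 250 bases of Nppa held 2 matches of GATAA, 2 of AAGTG and 1 of AGGTGT, with no overlap between them and no match of the other 3 motifs. GATAA is found in 22.6%, AAGTG in 40.7% and AGGTGT in 11.8% of all 32851 promoters of that length in the table. The 138 bases of Nppb held none of the 6 motifs in these spellings, and the same 138 positions of each promoter in the table, the part farthest from its RefSeq start, hold GATAA in 14.6% and AAGTG in 25.3% of cases. The RefSeq start of Nppb lies downstream of the GENCODE start used here. The bases between these 2 starts, nearest the RefSeq start, were neither shown nor searched, so the result for Nppb does not cover them. A match is a run of letters and not a measured binding site.

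The Nppb and Nppa starts are 14934 bp apart, and their extended spans, the gene body and 20 kb on each side, share summits. In the Nppb span 20 summits were listed in fed and 23 in fasting heart, against a lowest of 0, a median of 1.5 and a highest of 14 (fasting kidney) elsewhere. In the Nppa span the counts were 18 and 23 in heart, with a median of 4 and a highest of 12 in kidney elsewhere. Heart was thus above all other libraries at both genes, but at Nppa not without the summits at starts of other coding genes, where the count was 9 in fed and 11 in fasting heart, against 11 in fed kidney. The region that set heart apart most at both genes was the Nppb promoter itself, chr4:147985562-147986090, with a summit 53 bp upstream of the start. It ranked at 93.1 in fed and 81.5 in fasting heart, and the only other library with a summit there was fed liver, at 11.02. The summit listed in both kidney libraries and in 1 library each of liver, muscle, lung, brown adipose and white adipose lay 367 to 420 bp upstream of the start, in a neighbouring region, chr4:147985280-147985487, where heart ranked at 77.3 and 16.5. The region chr4:148004391-148004870, 3774 bp downstream of the Nppa start in a UTR of Clcn6, a chloride transporter gene, ranked at 61.5 and 71.9 in heart and was listed in no other library. Kidney had strong summits in regions without any heart summit: chr4:147977584-147978352 in the Nppb span, at 84.5 in fed and 84.7 in fasting mice, and chr4:148009643-148010153 in the Nppa span, at 79.6 and 87.0.

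**Figure D2:**
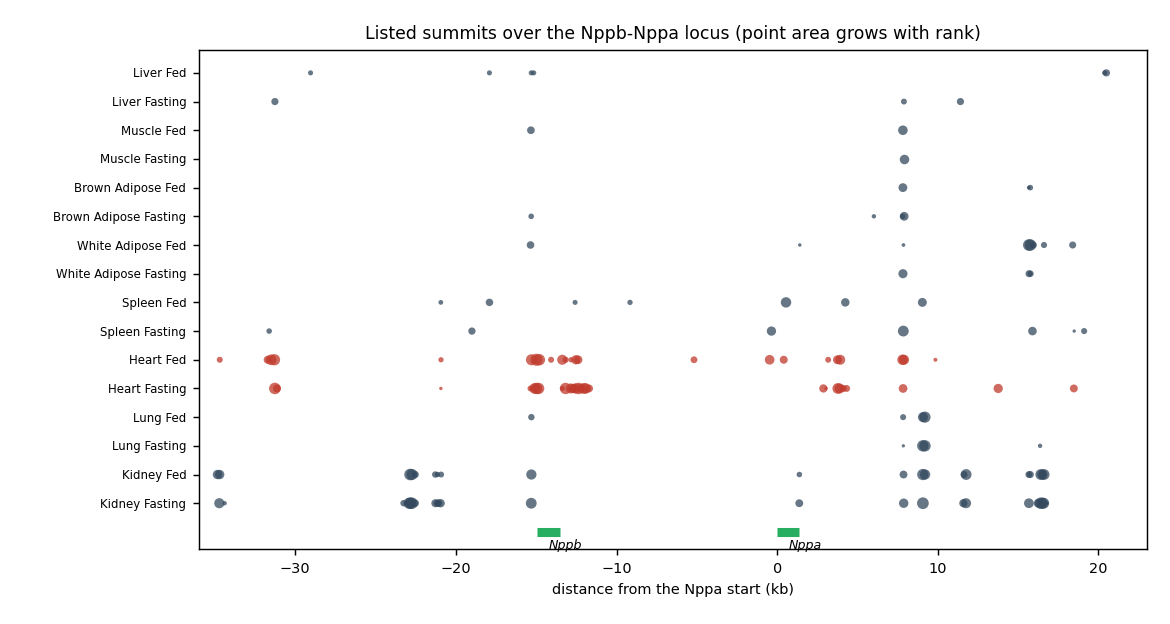
Listed summits over the Nppb and Nppa locus, 1 row per library, by distance from the Nppa start in kb; point area grows with the rank, heart is in red and the gene bodies are in green. Heart summits gather at the Nppb promoter, just downstream of Nppb and about 4 kb downstream of Nppa, and kidney summits lie mostly at other places.

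The crowding of summits at Nppb also bears on how its strength reads. MACS2 compares a summit with the larger of the genome background and a local average, and at the strongest summit within 3 kb of the Nppb start the expected tags were 1.86 times background in fed heart (53 bp upstream) and 2.91 times in fasting heart (2571 bp downstream), whereas in both kidney libraries (368 and 376 bp upstream) the expected tags were at the background. By summit height alone, these summits had 12.2 times background tags in fed heart (95% Poisson interval 9.31 to 15.7) and 9.77 times in fasting heart (7.40 to 12.7), the latter beyond the end of the gene. Kidney reached 9.85 times (7.21 to 13.1) and 11.4 times (8.565 to 14.96), so that heart and kidney overlapped in height, at different sites. These intervals cover counting error only.

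Of the factor genes, Tbx20 was the clearest. Its promoter ranked at 98.5 in fed and 98.2 in fasting heart, while the other libraries ran from 0 through a median of 33.4 to 75.0 in fed liver. The same region, chr9:24774152-24774840 with its summit 110 bp upstream of a start, had a listed summit in 9 other libraries. Height separated heart from the rest here as well: 25.2 times background in fed heart (20.97 to 30.06) and 18.2 times in fasting heart (14.87 to 21.97), against 8.51 times at most, in fasting liver. Within the extended body 31 and 32 summits were listed in heart, with a median of 2 and a highest of 11 elsewhere. Of the 8 genes, only Tbx20 kept the highest promoter rank in heart in both states when the tags of all libraries were scaled to the lowest genome background (95.3 and 93.7 in heart, at most 62.3 elsewhere).

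Nkx2-5 ranked at 94.6 in fed and 89.3 in fasting heart, above all others, whose lowest was 0, median 28.7 and highest 88.4 in fed liver. The margin over liver was small, and the summits lay at different sites. In heart the summit was 62 bp downstream of a start in fed and 65 bp in fasting mice, within chr17:26841122-26841733, which covers UTR and coding sequence of Nkx2-5 and had no summit in any of the other 14 libraries. In liver (88.4 and 80.4) and kidney (66.6 and 63.1) the summit lay 1336 to 1344 bp upstream, in chr17:26842616-26842988, where neither heart library listed a summit. In height, heart (14.4 times background in fed and 8.91 times in fasting mice) was not clear of liver (10.7 and 12.1 times), and fasting heart lay below both liver libraries. The extended body held 25 summits in each heart library and 1 to 12 elsewhere.

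Hand2 ranked at 84.1 in fed and 73.8 in fasting heart, with 0 as the lowest, 17.4 as the median and 66.7 (fasting spleen) as the highest of the others. In height it reached 9.76 times background in fed heart and 6.34 times in fasting heart, the latter below fed kidney at 7.28 times. Its extended body had 34 and 31 summits in heart and at most 9 elsewhere. Of 27 consensus regions around Hand2, 16 had summits in both heart libraries, and in 14 of these both heart ranks exceeded every other library. That was the most among the 8 genes. The other genes had from 5 such regions (of 26 at Nppa and of 24 at Nkx2-5) to 9 (of 41 at Tbx5 and of 36 at Tbx20), with 7 of 130 at Mef2c. A share over all consensus regions is not given here. The region that set heart apart most, chr8:57314346-57314540, lay 6524 bp upstream in an exon of the non-coding gene Hand2os1. It ranked at 81.0 and 87.8 in heart and was listed nowhere else.

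Tbx5 was more modest, at 72.3 in fed and 74.8 in fasting heart, with a lowest and median of 0 and a highest of 69.0 in fasting lung. Lung was the next tissue in both states (65.4 fed), and in height it exceeded heart: 7.29 times background in fed and 8.96 times in fasting lung, against 6.51 and 5.83 times in heart. The lung summits, at chr5:119832051 and chr5:119832048, lay 617 and 620 bp upstream of the first start. The heart summits, at chr5:119836911 and chr5:119837104, lay 756 and 949 bp downstream of another start, inside the gene. The region that holds both heart summits, chr5:119836804-119837162 in an intron of Tbx5, ranked at 72.3 and 74.8 in heart and at 3.87 in fasting lung, with no summit elsewhere. The extended body held 33 and 31 summits in heart, against a median of 2.5 and a highest of 18 in fasting lung.

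**Figure D3:**
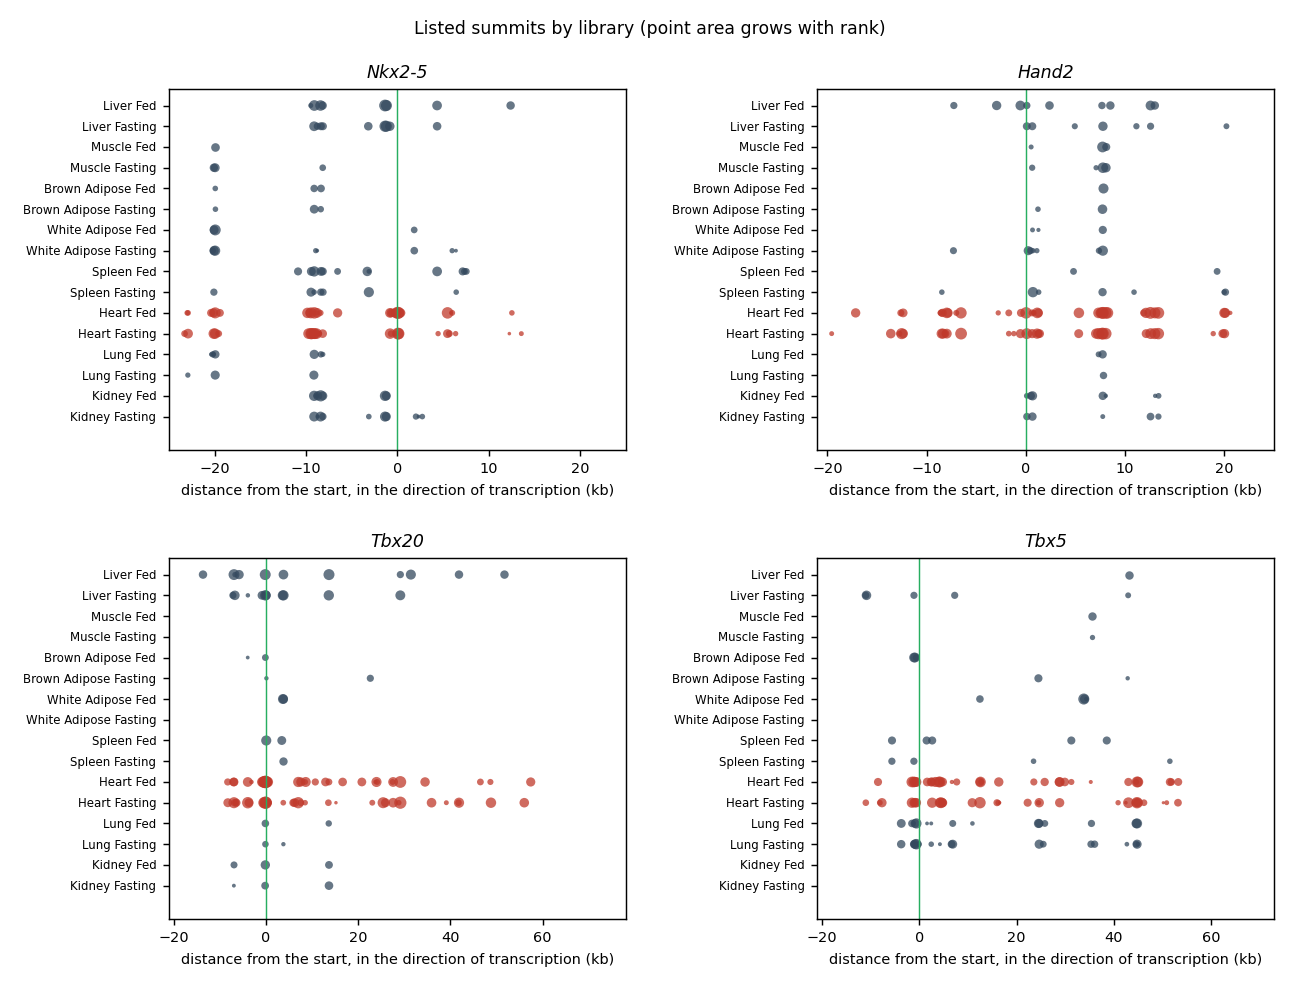
Listed summits at Nkx2-5, Hand2, Tbx20 and Tbx5, 1 row per library, by distance in kb from a start (green line; for Nkx2-5 the downstream start) in the direction of transcription; point area grows with the rank and heart is in red. Heart rows hold the most summits at each gene, and at Nkx2-5 the liver and kidney summits nearest the start lie upstream of the heart summits.

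Neither Gata4 nor Mef2c had its highest promoter rank in heart in both states. Gata4 ranked at 89.8 in fed and 94.6 in fasting heart, within the range of the others (lowest 0, median 67.0, highest 98.3 in fed liver; exact permutation p = 0.0469, adjusted p = 0.526). Gata4 has 5 annotated starts, and the strongest summits of heart, liver and kidney lay 121 to 832 bp upstream of an internal start. At the start farthest upstream, the region chr14:63271385-63271738 ranked at 89.6 and 88.5 in heart. The only other library listed there was fasting liver, at 50.2. Farther in, 0.647 and 0.689 kb downstream, liver ranked at 67.5 and 75.5, and heart, at 0.694 and 0.688 kb, at 74.2 and 58.6. In height of the strongest summit, liver (27.9 and 35.5 times background) and kidney (22.5 and 19.0 times) stood above heart (14.03 and 13.36 times). Even so, 78 summits in fed and 58 in fasting heart lay in its extended body, against a median of 18 and a highest of 55 in fasting liver. Mef2c, with 27 annotated starts against a median of 3 over all genes, ranked at 97.2 in fed and 98.6 in fasting heart and at 52.9 to 99.7 elsewhere, with spleen highest in both states (99.7 and 99.5; exact permutation p = 0.0625, adjusted p = 0.565). Its summits were most numerous in muscle, 126 in fed and 100 in fasting mice, against 69 and 66 in heart. The tallest Mef2c promoter summits were those of spleen, at 68.3 and 57.8 times background, followed by muscle at 43.8 and 34.9 times.

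In summits, heart led at 7 of the 8 genes, all but Mef2c, in both states. Over all protein-coding genes with a summit, 3.01% had the most summits in heart in both states. The median difference from the other tissues was 24.3 summits over the 8 genes and -0.214 over all genes. Each of the 7 genes had p = 0.0156 in the exact permutation test and 0.518 after adjustment over 21036 genes. Here too the fed and fasting libraries of a tissue are counted as independent. Summed over the 8 genes, counting summits in the Nppa and Nppb spans for both, heart listed 308 in fed and 289 in fasting mice, against a lowest of 55, a median of 90.5 and a highest of 149 in fed muscle. The count of genes shrank with stricter settings, and so did the share of all genes. It was 5 of the 8 genes at q under 0.01 (0.655% of all genes) and 3 at q under 1e-06 (0.0609%). After scaling to equal background only Hand2 kept the lead (0.0538% of all genes). Without summits at starts of other genes 6 of the 8 kept it, with no share of all genes given for that setting. At equal background heart summed to 97 and 73 and the highest other library, fed liver, to 80.

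**Figure D4:**
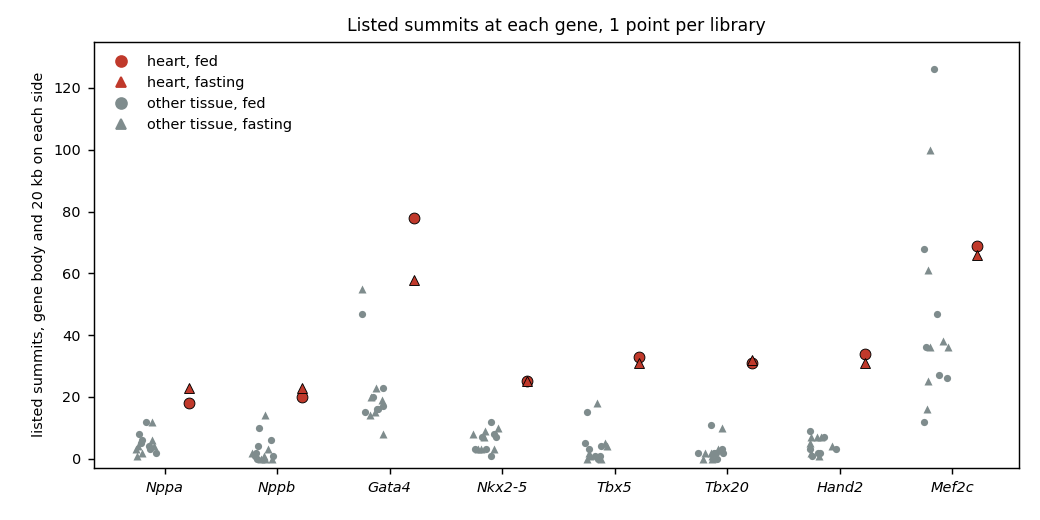
Number of listed summits in the gene body and 20 kb on each side (vertical axis) for the 8 genes, 1 point per library; circles are fed, triangles fasting, red heart and grey the other tissues. Both heart points lie above all grey points at every gene except Mef2c, where the muscle points at 126 and 100 are higher.

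A region private to heart was defined as a heart region at q under 0.01 in both states that no listed peak of any other tissue touches. Such regions were found at 7 of the 8 genes, all but Mef2c; 8.66% of all protein-coding genes have at least 1 in their extended body. There were 5 at Hand2, 4 at Nkx2-5, 3 each at Tbx5 and Tbx20, 2 at Gata4 and the same 2 at Nppa and Nppb, out of 2763 in the genome. At q under 1e-06 for the heart regions, only Nkx2-5 and Hand2 kept a private region, with 1 each. Without the 20 kb extension, 4 of the 8 genes had such a region, Gata4, Nkx2-5, Tbx5 and Tbx20. The share of all genes is given only for the main setting, so these smaller counts cannot be set against the genome.

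For each factor gene, 200 bases on a heart summit are given as an example of sequence under a summit listed in heart and in few or no other libraries; the region is that with the largest difference between heart and the highest other library whose 200-base window touches no UTR or coding sequence, so that at Tbx5 and Mef2c regions with a larger difference were passed over. They are read from GRCm38, plus strand, with the same motifs in capitals. The windows are chr14:63271744-63271943 (152 bp upstream of a Gata4 start), chr17:26835961-26836160 (intergenic, 5504 bp downstream of an Nkx2-5 start), chr5:119861467-119861666 (intron of Tbx5), chr9:24767174-24767373 (intron of Tbx20), chr8:57314359-57314558 (exon of Hand2os1) and chr13:83560247-83560446 (intron of Mef2c).
Gata4 region: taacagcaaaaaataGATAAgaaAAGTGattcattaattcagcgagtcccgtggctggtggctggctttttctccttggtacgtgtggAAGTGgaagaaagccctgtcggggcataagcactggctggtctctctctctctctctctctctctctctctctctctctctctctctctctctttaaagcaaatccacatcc
Nkx2-5 region: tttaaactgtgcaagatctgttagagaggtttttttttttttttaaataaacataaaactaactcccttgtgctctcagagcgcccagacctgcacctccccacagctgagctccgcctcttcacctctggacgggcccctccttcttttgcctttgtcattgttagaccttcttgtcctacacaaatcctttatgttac
Tbx5 region: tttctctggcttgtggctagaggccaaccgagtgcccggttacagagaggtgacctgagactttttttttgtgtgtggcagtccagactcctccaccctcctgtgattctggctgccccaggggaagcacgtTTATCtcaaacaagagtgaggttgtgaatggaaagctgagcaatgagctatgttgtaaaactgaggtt
Tbx20 region: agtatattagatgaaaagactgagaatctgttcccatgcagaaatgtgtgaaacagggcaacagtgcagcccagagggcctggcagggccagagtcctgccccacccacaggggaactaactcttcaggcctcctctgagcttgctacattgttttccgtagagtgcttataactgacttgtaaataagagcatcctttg
Hand2 region: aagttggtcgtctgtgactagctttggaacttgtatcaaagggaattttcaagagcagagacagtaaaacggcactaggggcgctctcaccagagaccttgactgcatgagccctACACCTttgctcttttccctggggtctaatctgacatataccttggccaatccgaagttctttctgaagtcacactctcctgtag
Mef2c region: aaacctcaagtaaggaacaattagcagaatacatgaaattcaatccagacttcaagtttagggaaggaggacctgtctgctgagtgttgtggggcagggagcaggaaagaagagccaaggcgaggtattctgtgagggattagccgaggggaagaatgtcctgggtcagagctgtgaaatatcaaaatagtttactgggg
The fed and fasting heart ranks were 58.5 and 51.3 at Gata4, 84.5 and 46.4 at Nkx2-5, 58.2 and 52.0 at Tbx5 and 64.9 and 80.6 at Tbx20, and none of the other 14 libraries listed a summit in these regions. The Mef2c region, at 70.5 and 43.2 in heart, was shared with 3 other libraries, of which fed muscle was highest at 35.5. GATAA occurred in the Gata4 and Tbx5 windows, AAGTG in the Gata4 window with 2 matches, and AGGTGT in the Hand2 window. The Nkx2-5, Tbx20 and Mef2c windows held none of the 6 motifs as spelled. Among 77806 windows of 200 bp on fed heart summits shared with fasting heart, 16.2% held GATAA, 35.9% AAGTG and 8.7% AGGTGT. The Gata4 window also ends in a long run of alternating t and c.

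Between fed and fasting mice, none of the 8 genes had a promoter rank higher by 10 points or more in fasting heart, where 8.82% of all genes with a heart promoter summit did. Nppa (-17.2 points) and Hand2 (-10.4 points) ranked lower by at least that much, as did 11.2% of all genes. The other differences, fasting minus fed, were -9.50 at Nppb, -5.23 at Nkx2-5, -0.213 at Tbx20, 1.37 at Mef2c, 2.51 at Tbx5 and 4.77 at Gata4. The sizes depended on the setting. Within 1 kb of a start the difference was -57.2 at Nppa, where fasting heart then listed none, and -11.6 at Nppb. At equal genome background it was -45.5 at Hand2, -38.2 at Nppb, -21.7 at Nkx2-5 and 11.6 at Gata4, and Nppa was listed in neither state. The median over the 8 genes in the full lists was -2.72 points and over all genes -0.115 points. With 1 library per state no test within heart is possible. The 95% Poisson intervals of summit height overlapped between the states at each of the 8 genes. At Hand2 they were 7.20 to 12.9 times background in fed and 4.46 to 8.74 times in fasting heart. Such an overlap is not a test of the difference. At Nppa, Nppb and Mef2c the strongest fed and fasting summits lie at different sites, so their rank differences and intervals compare different sites. Ranked by summit tags in place of p, Nppa turned to 10.4 points higher in fasting heart; the fed and fasting summits lie at different sites, with expected tags of 1.49 and 2.20 times background.

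Marker genes in heart also differed between the states. The summed promoter rank was lower in fasting heart for the cardiomyocyte (536.6 fed and 507.5 fasting), smooth muscle and pericyte (371.6 and 317.1), lung epithelium (228.7 and 157.8), atrial (144.9 and 113.5), fibroblast (402.7 and 386.2), skeletal muscle fibre (347.1 and 331.7) and mesothelium (111.1 and 85.0) lists. It was higher for the endothelial (446.0 and 457.1), adipocyte (126.3 and 139.7) and hepatocyte (87.4 and 96.2) lists. The macrophage gene Csf1r was at 52.9 and 84.3 and the leukocyte gene Ptprc at 0 and 43.2. Their part in the differences above was not tested.

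Over all 8 tissues, only Tbx20 differed between the states at an unadjusted p under 0.05, a level reached by 5.29% of all genes. Its promoter rank was lower in fasting in 7 tissues and equal, at 0, in muscle, with a mean difference of -17.2 points (exact two-sided sign-flip permutation p = 0.0156, adjusted p = 0.815). The differences ran from -61.2 points in white adipose to -0.213 points in heart. The p was 0.0938 at q under 1e-06, 0.0625 at equal genome background and 0.5 with the 100000 strongest summits, where the mean difference was -2.67 points. Nppb was lower in 6 tissues and higher in 2, brown adipose and kidney (mean difference -14.7 points, exact permutation p = 0.0781, adjusted p = 0.933). None of the 8 genes passed after adjustment.

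**Figure D5:**
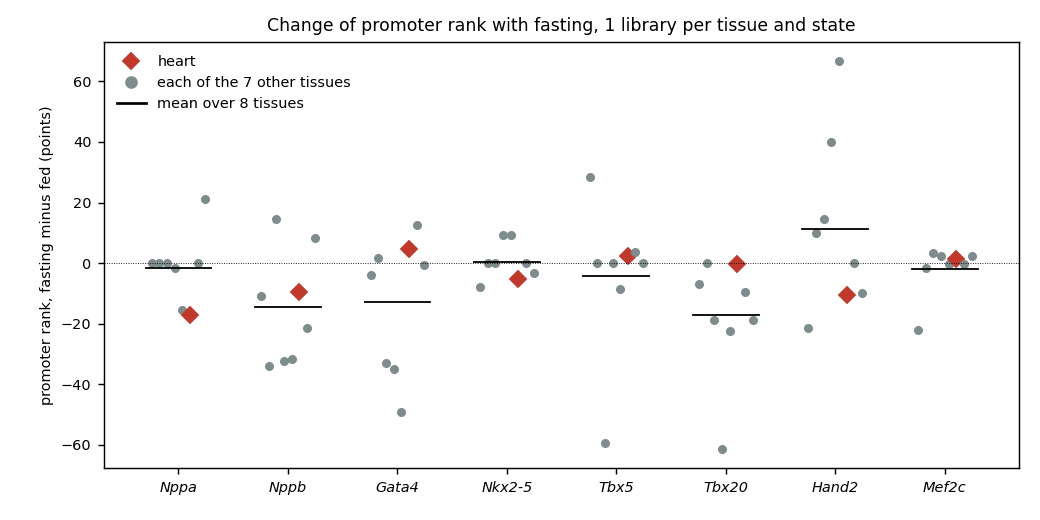
Fasting minus fed difference of promoter rank (points, vertical axis) for each gene in each tissue, with heart as a red diamond, the 7 other tissues as grey circles and the mean over 8 tissues as a black line. Heart differences stay between -17.2 and 4.77 points, while single other tissues move by up to 66.7 points, as Hand2 does in spleen.

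Genes around these factors behaved more mixed. Of 10 genes of natriuretic peptide signalling, only Corin, the protease that activates the atrial peptide, had its highest promoter rank in heart in both states (85.7 and 78.8, with a median of 13.5 and a highest of 72.2 elsewhere). At the low end stood Nppc, the gene of the C-type peptide, with 89.8 and 90.5 in heart and up to 99.8 elsewhere. The receptor gene Npr1 was at 82.8 and 84.9 in heart, close to the median of 83.7 elsewhere. Of 16 other cardiac factors, 3 were highest in heart in both states, Tbx3, Zfpm2 and Myocd, the last a coactivator of serum response factor (86.9 and 75.1, at most 70.5 elsewhere). Isl1, a factor of early heart progenitors, stood at the other end, with 44.2 in fed and 0 in fasting heart. Of 16 contractile and calcium handling genes, 2 had the highest promoter rank in heart, Tnnt2 and Pln, but 10 had the most summits there in both states; these counts stand beside 4.38% of all genes for the promoter and 3.01% for summits. The largest difference was that of Actc1, cardiac actin (59.4 points), and the smallest that of Sln, an atrial calcium pump regulator, listed at 0 in heart (-27.5 points). The median differences of the 3 lists were 3.51, 4.97 and 13.4 points.

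The 16 promoter ranks of each gene were also compared with those of all others by Pearson correlation, as a description, since the points share libraries and depth. Nkx2-5 was most like Corin (r = 0.939), Kcne1 (0.938), a potassium channel subunit, and Nrg3 (0.934). Within the 8 genes the closest pairs were Nkx2-5 with Hand2 (0.828) and with Tbx20 (0.828), whereas Nppa and Nppb reached 0.554. Nppa was most like 4930595D18Rik (0.896), and Hand1, the paralog of Hand2, was also among its 3 nearest (0.895). Mef2c was most like Fbxo32 (0.952), a ubiquitin ligase gene of muscle. For the others the most similar gene was Gm34302 for Nppb (0.914), Phlpp2 for Gata4 (0.880), Olfr455 for Tbx5 (0.860), Npbwr1 for Tbx20 (0.888) and Egfem1 for Hand2 (0.879).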

How the data were processed

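ATAC-seq peak lists of 16 pooled libraries were analysed. Per the labels and the study's methods, the authors aligned reads to GRCm38 with Bowtie2, removed unmapped and duplicate reads and called peaks with MACS2; versions are not given in the sources used here. The deposited columns are fold enrichment (a ratio), -log10 p and -log10 q (p-value and q-value of the authors' test within each list), and were not scaled between libraries, so only ranks within a list were compared. Tags and expected tags were solved from fold and p, and 98.3% to 100.0% of rows per library gave whole tags within 0.001; read depth itself is not given. Starts were those of GENCODE vM21, and 6 of the 8 genes were found in the RefSeq promoter table; Gata4 and Tbx5 were not. For an equal genome background, tags were scaled to the lowest background of the 16 libraries and rows with p under 1e-05 kept. Exact permutation tests were two-sided for fasting and one-sided for heart, with Benjamini-Hochberg adjustment over all genes. Consensus regions merge the regions of all lists at q under 0.01. Named were the 8 genes, the 3 most similar genes, the most heart-selective and strongest region of each, and the ends of the 3 lists. Genes and lists were chosen with earlier results of these data known. The steps were tested on simulated data. Tools were bedtools 2.31.1, pandas 2.3.3, scipy 1.17.1, numpy 2.4.6 and Python 3.11.15. Alternatives covered the q threshold, window, extension, ranking, regions, the 100000 strongest rows, genome background and each state alone; ranking by summit tags and leaving out summits at starts of other genes were added after the data were seen. The leukocyte marker list is not reported here.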

Additional observations from a re-analysis of the deposited data

Results flagged for a closer look

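At 2 genes the promoter rank differed between fasting and fed by 10 points or more in heart and by 10 points or more the opposite way in another tissue, and this difference between tissues was not tested, since each tissue has 1 library per state. Nppa differed by -17.2 points in heart and was higher by 21.15 points in fasting kidney, while spleen, at -15.5 points, went the way of heart. Hand2 differed by -10.4 points in heart and, in fasting mice, was higher by 14.6 points in brown adipose, 40.1 points in white adipose and 66.7 points in spleen, where no summit was listed in fed mice and 2 in fasting mice. Liver (-21.4 points) and kidney (-9.84 points) went the way of heart at Hand2. Smaller heart differences also had larger ones of the opposite sign elsewhere, such as 4.77 points at Gata4 in heart and -49.0 in spleen.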

How the results depend on the processing

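The count of genes with the highest promoter rank in heart in both states, 5, was 3 at q under 0.01 (Nppb, Nkx2-5 and Tbx20), 2 at q under 1e-06 and 2 when ranked by fold (Nkx2-5 and Tbx20 in both), and 1 at equal genome background (Tbx20); the corresponding shares of all genes were 1.89%, 0.435%, 6.48% and 0.561%. It was 5 in fed libraries alone and 6 in fasting libraries alone, where Gata4 joined. The count with the most summits in heart, 7, was 6 without summits at starts of other genes (Nppa lost). It was 3 at q under 1e-06 (0.0609% of all genes) and 1 at equal genome background (0.0538%), against 3.01% of all genes in the full lists. The count with a region private to heart, 7, was 2 at q under 1e-06 for heart regions and 4 without the extension. For this count and the fasting counts that follow, the share of all genes is given for the main setting only. The count of genes higher by 10 points in fasting heart, 0, was 1 at q under 1e-06, with the 100000 strongest rows and at equal genome background (Gata4 in each), and 1 when ranked by summit tags (Nppa); the count lower by 10 points, 2, was 3 at q under 0.01 and within 1 kb (Nppb joined), 3 at q under 1e-06, with the 100000 strongest rows and at equal genome background (Nppb, Nkx2-5 and Hand2), 2 when ranked by fold (Nppa and Nppb), 1 with regions in place of rows (Nppa) and 1 when ranked by summit tags (Hand2). The promoter difference of Tbx5 between heart and the other tissues, 52.8 points, turned to -0.271 at q under 1e-06. The cause of these changes was not tested, except that stricter thresholds and equal genome background leave fewer rows, 83912 and 98769 at equal genome background in fasting and fed heart. No replicate block was possible because the labels give no replicate numbers and each group has 1 library; the fasting test already pairs the libraries by tissue. Depth limits all presence calls: a summit not listed may lie below a list's limit.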
